A study of Mus musculus with 35 samples.

Results

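The chromatin of mouse embryonic fibroblasts under the treatment labelled Basal was described in 3 assays on day 4. Its members were the 5 samples of that label out of 35 in the series: 2 ATAC-seq libraries, 1 H3K4me3 library, 1 H3K27me3 library and 1 input library of the same label. The regions described were those of 3 tables of RPKM (reads normalised to the length of the region and the number of mapped reads), of which only the Basal column was read, together with the peak lists of the Basal libraries. The fibroblasts came from ICR mouse embryos after the head, limbs and viscera had been removed, and the methods describe no sort to a single cell type for this culture. The series follows fibroblasts exposed to small molecules that turn them towards extraembryonic endoderm, and the sample labels place every library in chemically induced fibroblasts. Neither the labels nor the study's methods say which chemicals, if any, the Basal cells received, so Basal cannot be read as untreated. The labels give no genotype for these samples, and the label fibroblast was not checked against marker genes, since no annotation of the files' build was used here.

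ATAC-seq cuts DNA with a transposase where nucleosomes leave it free, so a region with many reads is called open. Trimethylation of lysine 4 of histone H3 (H3K4me3) is laid down around the start sites of active and poised genes, and most CpG-rich promoters carry it. Trimethylation of lysine 27 of the same histone (H3K27me3) is written by Polycomb repressive complex 2 and spreads over silent developmental genes, often in long domains. A region with both marks is known as bivalent in embryonic stem cells, where many promoters of developmental regulators are of this kind. In a culture of many cells, overlap of 2 marks can come from the same allele or from different cells, which these assays cannot tell apart.

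Only regions on the 19 autosomes and chromosomes X and M were read from each table, and the numbers of regions refer to these. The ATAC-seq table held 36431 regions that covered 74.6 Mb, with a median length of 1479 bp and a median Basal level of 14.6 RPKM. The H3K4me3 table held 12566 regions over 49.8 Mb, with a median length of 3768 bp and a median of 17.8 RPKM. The H3K27me3 table held 19224 regions over 104.8 Mb, with a median length of 2017 bp and a median of 4.75 RPKM, and 496 of its regions were at 0 RPKM in Basal. Each table lists a single set of regions for every treatment of its assay, so a region can be listed without a Basal peak in it. The peak lists were made from 6784105 and 7337786 tags in the ATAC-seq libraries, 7103488 in H3K4me3 and 2876197 in H3K27me3. If RPKM counts these tags, a region of median length and level rested on about 304 tags in ATAC-seq, 476 in H3K4me3 and 28 in H3K27me3. The H3K27me3 values are thus the least precise of the 3. With 1 merged ATAC-seq column and 1 library per mark there is no replicate spread in the tables, and no test was made on them. Intervals beside shares and medians cover the number of regions only, and regions of a library are not replicates.

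Most regions of the ATAC-seq table overlapped neither mark, but most of those enriched in Basal itself overlapped H3K4me3. Of the 36431 open regions, 23194 (63.7%) lay outside both, 9822 (26.96%) overlapped H3K4me3 only, 1879 (5.16%) overlapped H3K27me3 only, and 1536 (4.22%) overlapped both by at least 1 bp. Of the 9128 open regions that held an enriched Basal ATAC-seq peak in either library (a peak with a -log10 q of at least 1.3), 5696 (62.4%) overlapped H3K4me3 and 3293 overlapped neither mark. In all, 11358 open regions (31.2%, 95% Wilson interval 30.7 to 31.7) overlapped H3K4me3 and 3415 (9.37%, 9.08 to 9.68) overlapped H3K27me3. Among the open regions with H3K4me3, 13.5% (12.9 to 14.2) also overlapped H3K27me3. Among those without H3K4me3 the share was 7.49% (7.17 to 7.83). By bases, the open regions shared 31.0 Mb with H3K4me3, which was 41.6% of the open bases and 62.3% of the H3K4me3 bases. They shared 4.64 Mb with H3K27me3, which was 6.23% of the open bases and 4.43% of the H3K27me3 bases.

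**Figure D1:**
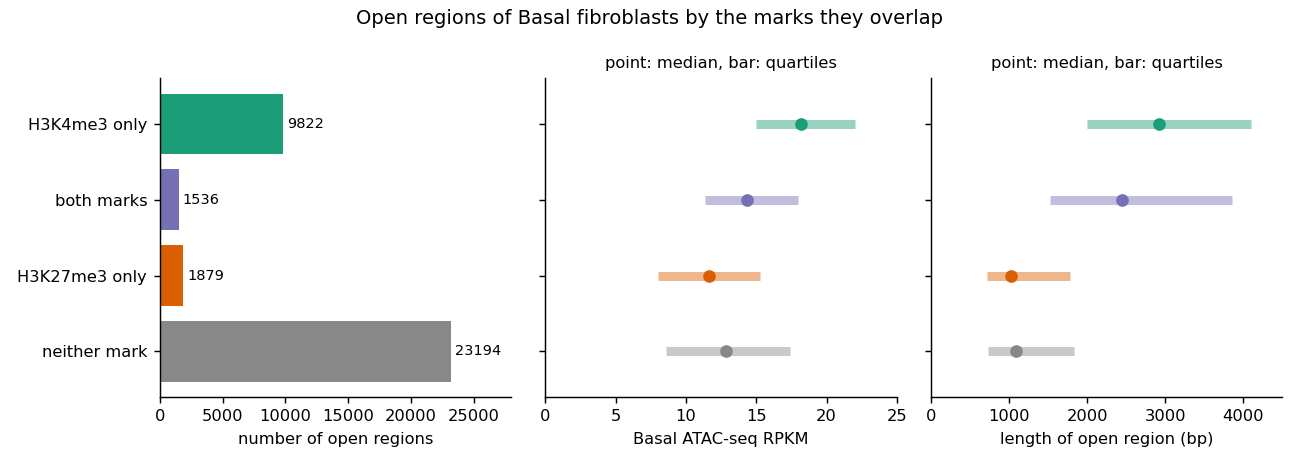
Open regions of the Basal column by the marks they overlap: the number of regions (bars), their ATAC-seq RPKM and their length in bp (points are medians, bars span the quartiles). Regions with H3K4me3 only had the highest median level (18.2 RPKM) and length (2923 bp), and regions with H3K27me3 only the lowest (11.7 RPKM and 1023 bp).

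Seen from the marks, most H3K4me3 regions overlapped a listed open region and few H3K27me3 regions did. An open region overlapped 11123 of the 12566 H3K4me3 regions (88.5%, 87.9 to 89.1) and 2848 of the 19224 H3K27me3 regions (14.8%, 14.3 to 15.3). Counting only regions that held an enriched Basal peak of their assay, 5716 of 12542 H3K4me3 regions (45.6%) and 312 of 3736 H3K27me3 regions (8.35%) overlapped an open region. H3K27me3 overlapped 2244 H3K4me3 regions (17.9%, 17.2 to 18.5). Of the 19224 H3K27me3 regions, 2153 (11.2%) overlapped H3K4me3, 1502 (7.81%) overlapped both an open and an H3K4me3 region, and 15725 (81.8%) overlapped neither. Regions that lacked an open region differed in their H3K27me3 content. Of the 1443 H3K4me3 regions outside open chromatin, 696 (48.2%, 45.7 to 50.8) overlapped H3K27me3, against 1548 of the 11123 open ones (13.9%, 13.3 to 14.6), which were 12.3% of the whole table. In the H3K27me3 table the presence of H3K4me3 went with openness. Of the 2153 H3K27me3 regions with H3K4me3, 69.8% (67.8 to 71.7) were open, against 7.88% (7.49 to 8.30) of the 17071 without it. The classes also differed in length, which is given with the levels below.

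The level of openness followed the marks. The median Basal ATAC-seq level was 18.2 RPKM (95% interval 18.0 to 18.4) in open regions with H3K4me3 only, 14.4 (14.1 to 14.7) in those with both marks, 12.8 (12.7 to 12.9) in those with neither and 11.7 (11.2 to 11.9) in those with H3K27me3 only. The quartiles of these classes overlapped: they ran from 8.56 to 17.4 RPKM in regions with neither mark and from 11.3 to 18.0 RPKM in regions with both. As a difference of medians of log2(RPKM + 1), openness was 0.45 (0.43 to 0.47) higher with H3K4me3 than without it, and 84.7% of the regions with H3K4me3 lay above the median of those without. With H3K27me3 it was -0.17 (-0.20 to -0.15) relative to the regions without it. With the 25% of open regions of lowest RPKM dropped, a filter on the measure itself that narrows any difference in it, the first difference was 0.20.

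Both marks had a higher level where an open region overlapped, and they differed in how their levels went with each other. The median H3K4me3 level was 18.8 RPKM (18.7 to 18.9) in the 9575 H3K4me3 regions that were open and free of H3K27me3. It was 15.7 (15.4 to 16.1) in the 747 regions that overlapped nothing, 14.5 (14.2 to 14.8) in the 1548 that were open with H3K27me3, and 10.8 (10.4 to 11.2) in the 696 with H3K27me3 and no open region. H3K4me3 was lower where H3K27me3 overlapped, by a difference of medians of -0.43 (-0.46 to -0.40) on the log2(RPKM + 1) scale, and higher where the region was open, by 0.38 (0.34 to 0.42). The H3K27me3 median was 7.44 RPKM (7.31 to 7.60) in the 1502 regions that overlapped both an open and an H3K4me3 region, 6.98 (6.86 to 7.20) in the 651 with H3K4me3 only, 5.73 (5.56 to 5.93) in the 1346 that were only open, and 4.19 (4.13 to 4.26) in the 15725 that overlapped neither. On the log2 scale it was 0.53 (0.50 to 0.57) higher with an open region than without, and 0.64 (0.60 to 0.68) higher with H3K4me3 than without. Many H3K27me3 regions of the table were near or at 0 in Basal, and 476 of the 496 regions at 0 RPKM overlapped neither an open nor an H3K4me3 region.

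Sorting each table by level showed the shape of these relations. Each table was cut into 10 groups of equal size, or deciles. In the decile of open regions with the lowest ATAC-seq RPKM (median 4.83), 1.98% overlapped H3K4me3, and the share was higher in every next decile up to 53.6% in the highest (median 26.6 RPKM). The share with H3K27me3 was 8.51% in the lowest decile, 13.2% in the third and 4.64% in the highest, so it peaked among regions of moderate to low openness. Even in the highest decile, 44.6% of the open regions overlapped neither mark. The H3K4me3 table had its turn at the bottom of the range. In its lowest decile (median 9.54 RPKM) 57.2% of regions were open and 67.5% overlapped H3K27me3, in the second decile 80.3% and 34.4%, and in the highest 97.9% and 4.61%. In the H3K27me3 table both shares were higher at higher levels: 3.38% of the lowest decile (median 0.478 RPKM) and 41.2% of the highest (median 9.39 RPKM) were open, and 1.77% and 38.4% overlapped H3K4me3.

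**Figure D2:**
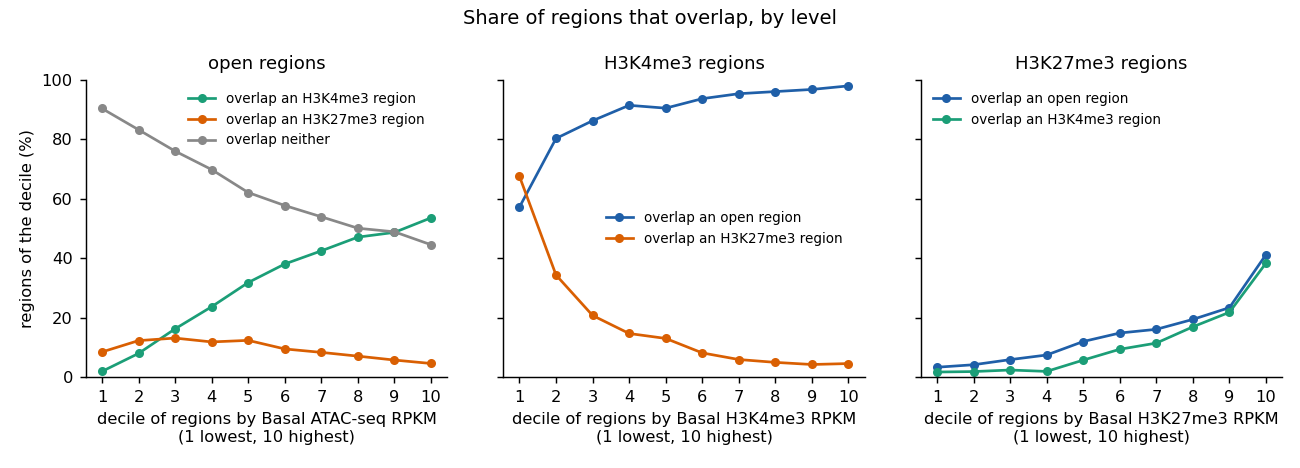
Share of regions (%) that overlap a region of the other tables, in deciles of regions sorted by the Basal RPKM of their own table (1 lowest, 10 highest). Overlap with H3K4me3 went from 1.98% to 53.6% of open regions, overlap with H3K27me3 from 67.5% to 4.61% of H3K4me3 regions, and openness from 3.38% to 41.2% of H3K27me3 regions.

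Open regions with H3K4me3 were longer than those without it. Over all open regions H3K27me3 went with little difference in length, but with shorter regions once those with and without H3K4me3 were taken apart. Open regions with H3K4me3 had a median length of 2870 bp (2842 to 2905), 2.64 times (2.59 to 2.70) the 1087 bp of those without it. Open regions with and without H3K27me3 had medians of 1543 and 1472 bp. Among those with H3K4me3 the medians were 2442 bp with H3K27me3 and 2923 bp without it, and among those without H3K4me3 1023 and 1092 bp. By deciles of length, the share of open regions with H3K4me3 went from 3.87% in the shortest (median 552 bp) to 76.4% in the longest (median 5242 bp), while the share with H3K27me3 stayed between 8.43% and 11.4% in all 10. The difference in openness was seen at each length: within 4 groups of equal size by length, regions with H3K4me3 were 0.33 to 0.38 higher on the log2(RPKM + 1) scale than regions without it. For H3K27me3 the differences within the same 4 groups ran from -0.22 to -0.09, and the smallest had an interval of -0.17 to -0.01. H3K4me3 regions with H3K27me3 were shorter than those without it (2573 against 3983 bp), and H3K27me3 regions with H3K4me3 were longer (8506 against 1712 bp).

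Among H3K27me3 regions the shares with an open region and with H3K4me3 were higher at greater length. H3K27me3 regions up to 2 kb numbered 9571, of which 4.19% were open and 3.24% overlapped H3K4me3. Of the 2548 regions from 10 to 50 kb, 45.2% were open and 33.7% overlapped H3K4me3, and of the 171 regions over 50 kb 84.8% and 55.0%. Counted per 100 kb of H3K27me3 the order was the opposite. The density of overlapping open regions was 4.19 per 100 kb in regions up to 2 kb, 3.69 from 2 to 10 kb, 3.07 from 10 to 50 kb and 2.67 beyond 50 kb. The density of H3K4me3 regions went from 3.25 to 1.10 over the same classes. A neighbour that only touches the edge of a region is counted in full, and the part of such neighbours in these densities was not tested. The difference in level was also seen within lengths: in 4 groups of equal size by length, H3K27me3 regions with H3K4me3 were 0.44 to 0.71 higher on the log2(RPKM + 1) scale than those without.

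Across overlapping pairs, the levels of openness and H3K4me3 were weakly related, and the level of H3K27me3 showed almost no relation to openness. Each open region was paired with the mark region that covered most of it. Spearman's rho between ATAC-seq and H3K4me3 RPKM was 0.245 over 11358 pairs, and it lay between 0.184 and 0.309 on each of the 19 autosomes taken alone. Within 4 groups of equal size by the open regions' length it was 0.195 to 0.256, and within 4 groups by the H3K4me3 region's length it was 0.262 in the shortest and 0.165 to 0.178 in the other 3. Length moved with level on both sides: in these pairs rho between an open region's length and its RPKM was 0.130, and between an H3K4me3 region's length and its RPKM 0.390. The median H3K4me3 level of the paired regions was 15.6 RPKM at the lowest decile of openness (median 9.88 RPKM), 18.4 at the fifth and 19.2 at the highest (median 29.3 RPKM), so most of the gradient lay in the less open regions. The rank correlation was 0.114 over the 8771 pairs left without those under the lower quartile of either table. Open regions with both marks had a rho of 0.422 over 1536 pairs, against 0.143 over the 9822 pairs with H3K4me3 only. Between ATAC-seq and H3K27me3 rho was -0.0144 over 3415 pairs, with single autosomes between -0.109 and 0.176, 7 of 19 of them above 0.

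Between H3K4me3 and H3K27me3, paired from the H3K4me3 side, rho was -0.199 over 2244 pairs and was negative on each of the 19 autosomes (-0.422 to -0.0593). By deciles of H3K4me3 level, the gradient lay in the regions of low level. The paired H3K27me3 median was 8.88 RPKM at the lowest decile of H3K4me3 (median 4.90 RPKM), 7.46 at the fifth and 7.00 at the highest (median 21.6 RPKM), and it differed little from the sixth decile on. Dropping the pairs in which either level was under the lower quartile of its table filters on both measures and removes most pairs. The sign then turned and rho was 0.105 over 772 pairs. Within 4 groups by the H3K4me3 region's length rho was -0.315 to -0.124. Within 4 groups by the H3K27me3 region's length it was -0.0839 to -0.0280, weaker than over all pairs. In these pairs rho between an H3K27me3 region's length and its RPKM was 0.446, and the part of length in the relation was not tested. The points of each of these correlations share their library, its depth and the base composition of the region, and they are given as descriptions.

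**Figure D3:**
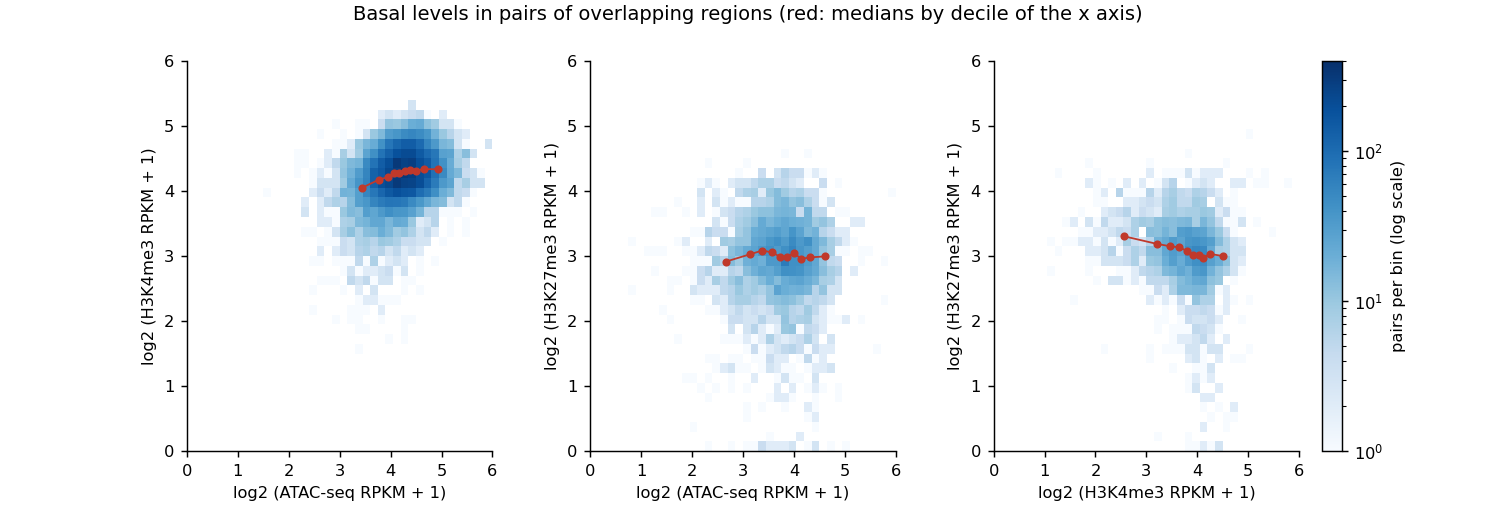
Basal levels in pairs of overlapping regions, as log2(RPKM + 1), for ATAC-seq and H3K4me3 (11358 pairs), ATAC-seq and H3K27me3 (3415) and H3K4me3 and H3K27me3 (2244). Shade gives the number of pairs per bin on a log scale and red points the medians in deciles of the x axis, and 30, 28 and 8 pairs with a value over 6 are not drawn. The red line climbs for ATAC-seq against H3K4me3, is nearly flat for ATAC-seq against H3K27me3 and falls at low levels for H3K4me3 against H3K27me3.

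Most open regions had their centre in the inner part of H3K4me3 regions, and they were spread through H3K27me3 regions up to and over their edges. Of the 11423 overlapping pairs of an open and an H3K4me3 region, 49.4% had the open region wholly inside the mark, 13.5% had it around the mark, and 37.1% overlapped in part. The centres lay a median of 496 bp apart, 77.2% of the open centres fell in the inner 50% of the mark region, and 4.92% fell outside it. In these pairs the open region covered a median of 68.3% of the H3K4me3 region. Of the 3480 pairs with H3K27me3, 57.5% had the open region inside. The centres lay a median of 2875 bp apart, 39.7% of the open centres fell in the inner 50% and 29.9% fell outside the mark region. The open region covered a median of 9.22% of it. An open region that lies inside a mark region and covers most of it must have its centre near the mark's centre. Positions at matched length were not compared, and the part of relative length in the contrast between the marks was not tested. Nearly all open H3K4me3 regions (10840 of 11123) held a single open region and at most 4 were found in one, whereas 451 of the 2848 open H3K27me3 regions held 2 or more, up to 9. Of the 2310 pairs of the marks themselves, 52.9% had the H3K4me3 region inside the H3K27me3 region, and 7.49% the reverse.

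**Figure D4:**
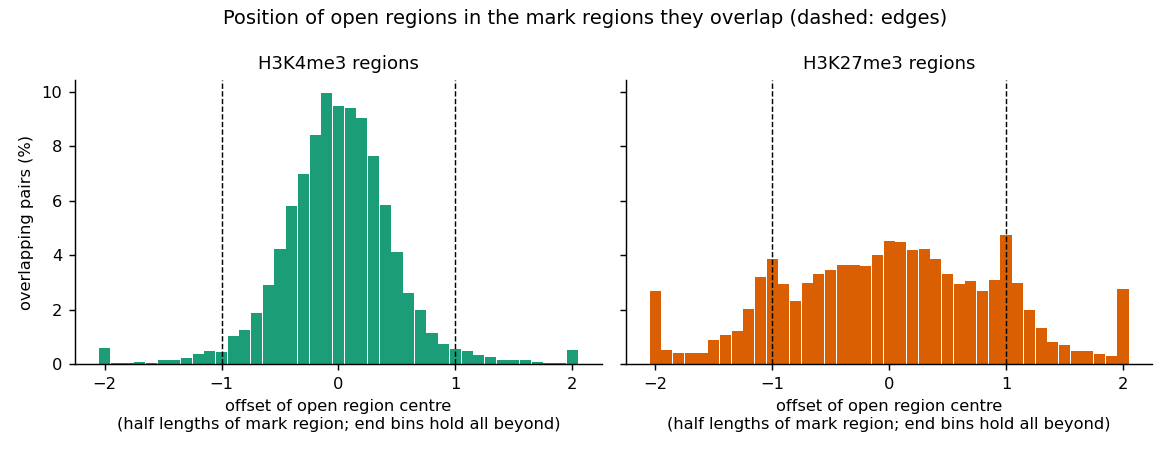
Position of the centre of each open region from the centre of the mark region it overlaps, in units of the mark region's own length divided by 2 (x axis), as a share of overlapping pairs in % (y axis). Dashed lines mark the edges, and the end bins hold everything beyond. With H3K4me3, 77.2% of centres lay within the inner 50% of the region, with H3K27me3 39.7%, where further maxima stand at both edges. The open region covers more of an H3K4me3 region than of an H3K27me3 region, and the part of relative length in this contrast was not tested.

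Open regions without a mark were mostly far from a listed region of either mark. Distances are to listed regions only, and 2377 of these open regions (10.2%) held an enriched Basal H3K4me3 peak themselves. They are thus not distances from the mark itself. The median distance of the 23194 unmarked open regions was 52958 bp to the nearest H3K4me3 region and 56409 bp to the nearest H3K27me3 region, and 6.56% lay within 5 kb of H3K4me3. Their openness was lower with distance: the median was 14.5 RPKM in the 1522 regions up to 5 kb from H3K4me3, 13.8 from 5 to 20 kb, 13.3 from 20 to 50 kb and 12.1 in the 12000 beyond 50 kb. Their median lengths in these classes were 1138, 1135, 1137 and 1056 bp. Open regions with H3K27me3 only lay a median of 31657 bp from H3K4me3, and 14.2% of them were within 5 kb.

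The peak lists show how far the listed regions were enriched in Basal itself. A peak was counted as enriched at a -log10 q of at least 1.3 (a q of 0.05). An enriched Basal peak was held by 99.8% of the H3K4me3 regions and 19.4% of the H3K27me3 regions, and by 17.00% and 18.8% of the open regions in the first and the second ATAC-seq library. The H3K27me3 regions with an enriched peak stood apart from the rest of their table. These 3736 regions had a median length of 9392 bp and a median level of 7.61 RPKM, 39.1% of them were open and 33.9% overlapped H3K4me3. In the 15488 others the medians were 1539 bp and 3.94 RPKM, and the shares were 8.95% and 5.73%. The level chose the first group in part, so its higher RPKM is no finding. A longer region has more room for a peak and for a neighbour. The 2 groups were not compared at matched length, and the part of length in their shares was not tested. Direct overlap of peaks, with no table between them, gave another order for H3K27me3, whose table regions overlapped open regions more often than H3K4me3 regions. The 2 orders do not rest on like numbers. At this cut the H3K4me3 list held 37459 enriched peaks over 54.7 Mb, and the ATAC-seq lists 6708 and 7313 over 8.52 and 10.2 Mb. The tables held 36431 open and 12566 H3K4me3 regions. Input served as control for the marks only. Whether these differences set the order was not tested. Of the 6100 enriched H3K27me3 peaks 31.6% overlapped an enriched H3K4me3 peak, and 1.87% and 2.33% overlapped an enriched ATAC-seq peak of the first and the second library. Of the enriched ATAC-seq peaks 67.2% and 73.1% overlapped an enriched H3K4me3 peak, and 1.62% and 1.83% an enriched H3K27me3 peak.

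The class of open regions with both marks rested less firmly on Basal peaks than the class with H3K4me3. Of its 1536 regions, 1525 held an enriched H3K4me3 peak, 787 an enriched H3K27me3 peak and 778 (50.7%) held both kinds inside the open region. Of the 1879 regions with H3K27me3 only, 630 (33.5%) held an enriched H3K27me3 peak, and 512 (27.2%) held an enriched H3K4me3 peak although no region of the H3K4me3 table overlapped them. Of the 23194 regions with neither, 2377 (10.2%) held such an H3K4me3 peak and 10 an enriched H3K27me3 peak. The H3K4me3 table overlapped 46.1% of the 37459 enriched H3K4me3 peaks of Basal, so the class without a mark means without a listed region. Within the H3K4me3 table, the median fold enrichment of the strongest peak was 21.5 in open regions free of H3K27me3, 13.6 in open regions with H3K27me3, 13.6 in regions that overlapped nothing and 9.42 in regions with H3K27me3 and no open region. A peak at a -log10 q of at least 5 was held by 99.9%, 96.9%, 97.2% and 84.6% of these groups.

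The 2 ATAC-seq libraries put the classes in the same order, and this is the only measure here with a spread between libraries. An enriched peak was held by 37.6% and 44.5% of the regions with H3K4me3 only in the first and the second library, by 16.9% and 22.0% of those with both marks, by 9.29% and 8.84% of those with neither, and by 4.31% and 4.52% of those with H3K27me3 only. The libraries differed by at most 6.84 percentage points within a class, and adjacent classes in this order did not overlap. The median lengths of the classes fell in the same order, at 2923, 2442, 1092 and 1023 bp, and a longer region has more room for a peak. Both libraries were scored on the same regions, and shares at matched length were not computed. The labels do not say whether these libraries came from separate cultures, so the spread may be technical, and no test was made. Of the regions with H3K4me3 only that were enriched in the first library, 75.2% were enriched in the second, against 44.5% of the whole class. These 2 shares were 71.5% and 22.0% with both marks, 42.3% and 8.84% with neither, and 33.3% and 4.52% with H3K27me3 only. Recurrence was not scaled to the share of the class, so its order across classes is not a ranking of how well peaks repeat. Over all classes, 63.1% of the first library's enriched regions and 57.1% of the second's recurred in the other. The rank correlation of fold enrichment between the libraries, over regions with a peak listed in both, was 0.599 over 9373 regions with H3K4me3 only, 0.549 over 1321 with both marks, 0.334 over 13927 with neither and 0.259 over 1002 with H3K27me3 only. Of the 3905 open regions enriched in both libraries, 2966 (76.0%) overlapped H3K4me3.

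**Figure D5:**
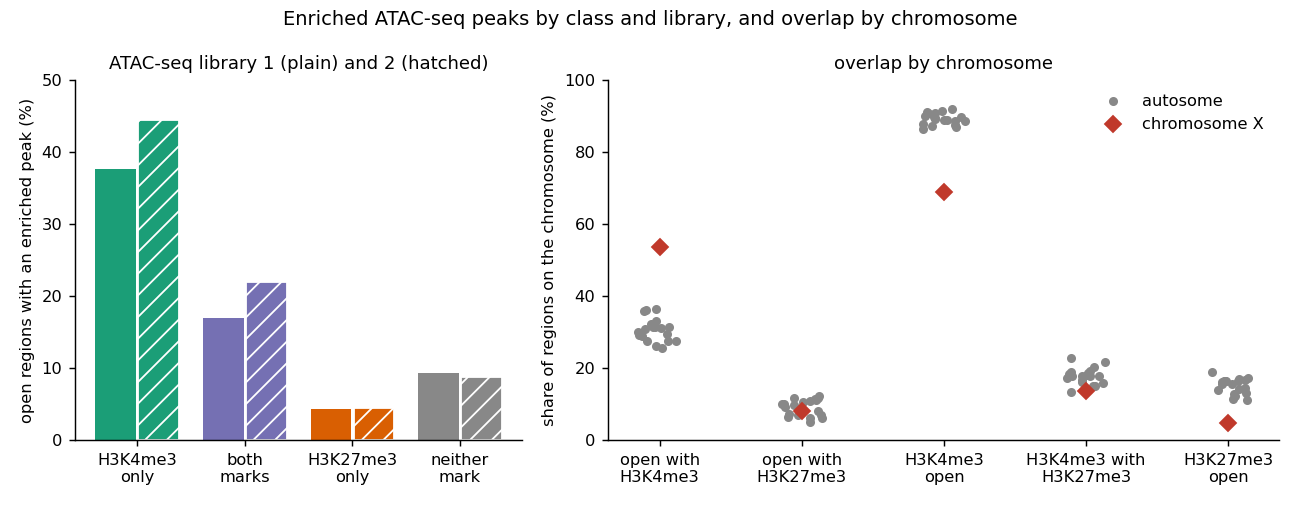
Left, share of open regions (%) with an enriched ATAC-seq peak in each Basal library, by the marks the regions overlap. Right, share of regions (%) that overlap another table on each of the 19 autosomes (grey) and on chromosome X (red). Both libraries give the order H3K4me3 only, both marks, neither mark, H3K27me3 only, and chromosome X lies outside the autosomes in 3 of the 5 shares. The median lengths of the classes fall in the same order, and the shares are not matched for length.

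Chromosome X lay outside the range of the autosomes in 3 of 5 overlap shares. It held 498 open regions, fewer than any autosome (1057 to 2911), beside 383 H3K4me3 and 859 H3K27me3 regions, numbers within the autosomal ranges of 352 to 1023 and 504 to 1569. Open regions on X outnumbered its H3K4me3 regions by little, while each autosome held 2.53 to 3.62 open regions per H3K4me3 region. Of the open regions on X, 53.6% overlapped H3K4me3, against 25.6 to 36.5% on the autosomes. Of the H3K4me3 regions on X 68.9% were open, against 86.4 to 91.9%, and of the H3K27me3 regions 4.77%, against 11.3 to 19.1%. The other shares lay within the autosomal ranges: 8.23% of open regions on X overlapped H3K27me3 (5.18 to 12.4% on the autosomes), and 13.6% of H3K4me3 regions did (13.4 to 22.9%). Median H3K4me3 was 15.2 RPKM on X and 17.5 to 18.4 on the autosomes, and median H3K27me3 was 3.88 against 3.99 to 5.34. Median openness on X was 14.2 RPKM, within the autosomal range of 14.0 to 15.3. Its open regions were shorter, with a median of 1222 bp against 1352 to 1720 bp on the autosomes. Fewer of them held an enriched ATAC-seq peak: 11.2% in the first library, against 13.8 to 20.9%, and 12.4% in the second, against 16.3 to 22.9%.

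The highest levels of the 3 assays coincided at some places and not at others. At 10 or more times the median of their table there were 17 open regions, 5 H3K4me3 regions and 7 H3K27me3 regions, and 3 of these open regions overlapped regions as far above the median in both marks. By overlap alone, whatever its level, 13 of the 17 open regions (76.5%) overlapped both marks, a class of 4.22% of the table. Of these 17, 2 lay on chromosome M, at 11857 and 8896 RPKM, where H3K27me3 was 1.71 and 3.87 RPKM and no H3K4me3 region is listed. Mitochondrial DNA has no nucleosomes and is open to the transposase. In the build of the files, mm9, the region chr2:98502299-98508122 had 3694 RPKM in ATAC-seq, 770.0 in H3K4me3 and 410.7 in H3K27me3, or 254, 43.3 and 86.4 times the median of each table. The next open regions with both marks were chr17:39979910-39985894, with 1950 RPKM in ATAC-seq, 73.0 in H3K4me3 and 83.9 in H3K27me3, and chr6:103599003-103600323, with 1662, 524 and 92.3 RPKM. The 3 highest regions of the mark tables lay at the same 3 places. The highest H3K4me3 region, chr12:3109768-3110228 at 2397 RPKM, overlapped the highest H3K27me3 region, chr12:3109765-3110557 at 817 RPKM, and no open region was listed there. The next were chr2:98502296-98507593 in H3K4me3 and chr2:98502265-98508292 in H3K27me3, over the most open nuclear region given above. The last were chr9:35112728-35113260 at 723 RPKM in H3K4me3 and chr9:35112573-35114235 at 149 RPKM in H3K27me3, with an open region at 425 RPKM. Leaving out all regions at 10 or more times the median gave rank correlations of 0.243, -0.0240 and -0.209 in place of 0.245, -0.0144 and -0.199. No filter for repeats or for sites where reads map poorly was applied here. The level of the input library at the places named here and below was not read. Whether these levels are artefacts of mapping was not tested, so they cannot be read as chromatin state.

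Outside chromosome M, the highest open regions of the other classes were less extreme. The 2 regions on chromosome M given above overlapped H3K27me3 only and are left out here. With H3K4me3 only they were chr1:197067686-197068828 at 420 RPKM, chr17:3083972-3084517 at 132 and chrX:166442095-166443001 at 93.8. With H3K27me3 only they were chr9:3009247-3009906 at 262 RPKM, chr4:3006059-3014165 at 81.2 and chr1:26741971-26745951 at 53.4, and the H3K27me3 level over the last 2 was 2.35 and 4.16 RPKM, below the median of its table. With neither mark they were chr5:148422380-148424030 at 106 RPKM, chr8:86279470-86281713 at 105 and chr17:13742248-13746018 at 74.7. Outside chromosome M, the highest region thus differed more between the classes than their medians did.

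All 3 of the longest H3K4me3 regions overlapped H3K27me3 of high level, and of the 3 longest H3K27me3 regions 2 overlapped H3K4me3. The longest H3K4me3 region, chr11:3042405-3105560, spanned 63.2 kb at 27.7 RPKM, with an open region at 194 RPKM, 13.3 times the median, and H3K27me3 at 16.7 RPKM, 3.52 times its median. The next, chr6:52148243-52191040 with 42.8 kb and chr11:96152995-96182634 with 29.6 kb, stood at 17.2 and 15.8 RPKM, close to the median of their table. Each of these overlapped 4 open regions, of up to 23.4 and 18.0 RPKM, and H3K27me3 of up to 15.6 and 12.0 RPKM, 3.29 and 2.52 times its median. The longest H3K27me3 regions were chr5:35572432-35788657 with 216 kb at 7.89 RPKM, chr5:139964235-140166609 with 202 kb at 9.75 RPKM and chr9:107243380-107435892 with 193 kb at 7.58 RPKM. They overlapped 6, 7 and 5 open regions, of up to 18.2, 19.5 and 26.1 RPKM. The first held 2 H3K4me3 regions of at most 2.20 RPKM, 0.123 times the median, the second held none and the third held 4 of up to 19.4 RPKM. No annotation of mm9 was used here, so these positions carry no gene names.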

How the data were processed

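ATAC-seq (50000 cells per reaction) and ChIP-seq libraries of Basal fibroblasts were taken from day 4. Per the submitters' processing notes, the tools were Bowtie2, MACS2 and deepTools 3.1.0 and the build was mm9. The tables of RPKM were made by the authors and hold 1 column per treatment, which for ATAC-seq is merged over libraries. The authors' lists give each peak's fold enrichment, pileup signal and -log10 q-value as MACS 2.1.2 wrote them. Per the file headers, the p threshold was 0.05, tags were extended to 250 bp, duplicates were reduced to 1 tag per position, broad peaks were called for ATAC-seq and H3K27me3, and the Basal input served as control for both marks. The headers also say that q was not calculated, yet the deposited lists hold the column, and every count of enriched peaks rests on it.

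Positions were read as counting from 1 with both ends included, since 14.7 to 24.3% of the table starts equal a start in the Basal lists, which count from 1, and at most 0.167% do when shifted by 1 bp. Neighbouring regions of a table begin at least 1001 bp after the end of the one before. Table regions on chromosomes other than the 19 autosomes, X and M were not read, and the peak lists were not filtered in this way. A peak on another chromosome thus counts as overlapping no table region. Regions overlapped if they shared at least 1 bp. Levels were compared as log2(RPKM + 1) with a pseudocount of 1, shares have 95% Wilson intervals, medians have order-statistic intervals and rank correlations are Spearman's, in Python 3.11.15 with scipy 1.17.1. The overlap, class and interval functions were checked on simulated regions. Intervals cover counting error only. The regions named were, by rule, the 3 highest open regions of each class outside chromosome M and the 3 highest and 3 longest regions of each mark table. The regions, rules and comparisons were chosen with earlier results of these data known. The 3 ChIP-seq samples titled as control but labelled with another treatment have no group and were not used. Alternatives were another overlap rule, autosomes only, enriched regions only, a filter on low RPKM, other pseudocounts and single ATAC-seq libraries.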

Additional observations from a re-analysis of the deposited data

How the results depend on the processing

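Of 62 recomputed values, 36 stayed near the value reported (counts within 1.5 times, other values within their interval), 25 moved and 1 reversed. No paired analysis was possible because a single treatment was described, its ATAC-seq column is merged over libraries and no result came from a test. The 19 autosomes alone moved no result. Of the 9128 open regions with an enriched ATAC-seq peak in either library, 5696 (62.4%) overlapped H3K4me3. This count was 4706 of 6841 (68.8%) without the first library and 3956 of 6192 (63.9%) without the second. With a peak in both libraries it was 2966 of 3905 (76.0%), and it was 439 of 513 (85.6%) at a -log10 q of at least 5. Each of these alternatives can only lower the count.

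Restricting every table to regions with an enriched Basal peak leaves fewer regions by construction. Open regions with H3K4me3 numbered 5696 of 9128 (62.4%), with H3K27me3 324 (3.55%) and with both 257 (2.82%). H3K4me3 regions that were open numbered 5716 of 12542 (45.6%) and with H3K27me3 1384 (11.03%), and open H3K27me3 regions 312 of 3736 (8.35%). With a -log10 q of 5 as the minimum in every table, 437 of 513 open regions (85.2%) overlapped H3K4me3, 9 (1.75%) H3K27me3 and 9 both. Of 12382 H3K4me3 regions 442 (3.57%) were open and 19 (0.153%) overlapped H3K27me3, and 9 of 16 H3K27me3 regions were open. With the lowest 25% of regions of each table dropped, open regions with H3K27me3 numbered 2270 of 27323 (8.31%) and those with both marks 590 (2.16%). H3K4me3 regions with H3K27me3 then numbered 773 of 9424 (8.20%). The rank correlation of ATAC-seq and H3K4me3 was then 0.114, that of H3K4me3 and H3K27me3 reversed to 0.105, the difference in openness with H3K4me3 was 0.20 and the length ratio 2.46.

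With an overlap of at least 50% of the shorter region, the rank correlation of the marks was -0.245 and the difference in openness with H3K27me3 -0.25. Pseudocounts of 0.1 and 10 gave differences in openness with H3K4me3 of 0.48 and 0.29, and a pseudocount of 10 gave -0.11 with H3K27me3. Leaving out regions at 10 times the median was chosen after seeing the data and moved no rank correlation. Few regions reached a -log10 q of 5 outside H3K4me3: 16 of 19224 in H3K27me3 and 312 and 313 of 36431 in the ATAC-seq libraries, and the part of depth in this was not tested.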
